A study of Mus musculus with 18 samples.

Results

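The proteasome subunit genes were taken as every row of the deposited mouse liver count table whose symbol is Psm followed by a letter from a to g and a number, which gave 49 of 52636 genes. The rule uses names and no measured value. It covers 7 alpha and 7 constitutive beta subunits of the 20S core, 3 immunoproteasome beta subunits, 2 tissue-restricted core subunits, 6 ATPases and 11 non-ATPase subunits of the 19S regulatory particle, 5 activators, 7 assembly factors and 1 inhibitor. Of these, 48 passed the filter on low counts and were tested among 13958 genes. Psmb11, the beta subunit of the thymus cortex, had 0 counts in all 18 libraries, which allows up to 3 counts in a library.

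The proteasome is the barrel-shaped protease that destroys proteins tagged with ubiquitin. Rings of alpha subunits gate the barrel, rings of beta subunits carry its cutting sites, and the 19S cap recognises, unfolds and feeds in the substrate. Interferon-induced beta subunits replace the 3 cutting subunits to form the immunoproteasome, which makes peptides for presentation on major histocompatibility complex (MHC) class I molecules, and separate chaperones assemble core and cap. In hepatocytes, which make and secrete large amounts of protein, proteasomes are abundant, and the transcription factor NFE2L1 raises subunit genes together when proteasome capacity falls short.

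The study profiled liver RNA taken 8 hours after lights on (zeitgeber time 8) from 6 groups of 3 samples. H-WT and H-KO mice, 10 weeks old, belonged to the line B6.129X1(FVB)-Hnf4atm1.1Gonz/J carrying Albtm1(cre/ERT2)Mtz, that is, a floxed allele of the hepatocyte nuclear receptor gene Hnf4a and a tamoxifen-inducible Cre recombinase driven by the albumin locus. BH-WT and BH-KO mice, also 10 weeks old, came from a line that carried Arntltm1Weit as well, a floxed allele of the clock gene Arntl (BMAL1). BH-HF-WT and BH-HF-KO mice were from that same line, were 45 weeks old and had eaten a high-fat diet for 35 weeks from 10 weeks of age, so that age and diet cannot be told apart. Every group received tamoxifen at 8 weeks of age, on 5 days at 10 mg/mL, and the sources used here do not say what sets a WT mouse apart from a KO mouse of the same line. Albumin-driven Cre acts in hepatocytes, while the RNA came from whole liver, whose other cells keep their alleles. The labels do not say that the samples of a group are separate mice, so the p-values measure only the spread between these samples, which may be technical.

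The libraries held 6846471 to 9816124 counts, of which the 49 genes together took 0.279% to 0.428%. The trimmed-mean (TMM) scaling factors of edgeR ran from 0.83 to 1.38 and were 1.32 to 1.38 in H-KO. Albumin took 1.35% to 1.68% of all counts in H-KO and 1.79% to 8.48% in the other groups. BH-KO replicates 2 and 3 were close to H-KO, with factors of 1.26 and 1.3 and albumin at 2.36% and 1.79%. Hnf4a was at 802, 889 and 581 CPM (counts scaled to a common library size) in H-WT and at 565, 658 and 556 in H-KO, a log2 difference of -0.35 (edgeR adjusted p = 0.208). It was at 789, 890 and 772 CPM in BH-WT against 867, 500 and 495 in BH-KO (log2 difference -0.40, edgeR adjusted p = 0.164), and at 768, 783 and 840 CPM in BH-HF-WT against 844, 978 and 820 in BH-HF-KO (0.14, edgeR adjusted p = 1). Arntl rose in BH-KO, from 0.421, 0.735 and 0.799 CPM in BH-WT to 17.4, 22.3 and 24.1 (log2 difference 5, edgeR adjusted p = 2.13e-06), whereas in the libraries labelled BH-HF-KO it was at 0.885, 2.54 and 1.36 CPM against 1.03, 1.37 and 2 in BH-HF-WT (0.13, edgeR adjusted p = 1). Counts over a whole gene include exons outside a deleted part and so do not check a deletion, and the BH-HF-KO libraries lacked the Arntl rise of BH-KO. Of the libraries, BH-KO replicate 1 stood apart from its group, with a TMM factor of 0.881 against 1.26 and 1.3, mitochondrial counts of 9.45%, and the lowest share of proteasome counts, 0.279% against 0.422% and 0.428%. H-WT replicate 3 had the highest level of its group for 35 of the 48 tested proteasome genes. Of 5 hepatocyte markers, Alb and Ttr fell in H-KO (by 2.75 and 3.35 on the log2 scale), and in BH-KO Alb fell by 1.77 while Apoa1 rose by 0.91, with list medians of -0.35 and -0.37. In BH-HF-KO 0 of the 5 passed, but Alb lay below BH-HF-WT without overlap (-1.18, edgeR adjusted p = 1), at 2.68% to 3.72% of counts against 6.18% to 7.71%.

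Upstream sequence is shown for 5 genes on which the results turn: Psmd11, Psmc4 and Psmd9 of the regulatory cap and its assembly, the immunoproteasome subunit Psmb10 and the activator Psme3. Each run is RefSeq sequence of build GRCm38.p6 on the gene's own strand, from 250 bases before the annotated start toward it, ending before the first transcribed base. The RefSeq start of Psmd9 lies inside the GENCODE span of the gene given further on. Capitals mark an E-box (CACGTG, the site of clock factors such as BMAL1), an antioxidant response element (TGACNNNGC, the site of NFE2L1 and related factors), an interferon-stimulated response element (GAAA and GAAA with 2 bases between them) or a CCAAT box (CCAAT, or ATTGG when read on the other strand), each searched on both strands.
Psmd11 upstream, chr11:80428365-80428614, plus strand: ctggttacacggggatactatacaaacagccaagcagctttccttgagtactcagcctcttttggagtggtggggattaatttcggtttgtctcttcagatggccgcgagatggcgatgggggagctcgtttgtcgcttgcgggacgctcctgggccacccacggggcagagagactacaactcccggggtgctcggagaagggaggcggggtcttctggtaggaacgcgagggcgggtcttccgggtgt
Psmc4 upstream, chr7:28050102-28050342, minus strand: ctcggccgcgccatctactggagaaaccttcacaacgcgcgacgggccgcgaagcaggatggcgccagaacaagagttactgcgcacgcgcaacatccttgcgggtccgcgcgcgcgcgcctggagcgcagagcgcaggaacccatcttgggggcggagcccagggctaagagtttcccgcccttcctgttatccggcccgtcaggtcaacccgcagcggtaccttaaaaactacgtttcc
Psmd9 upstream, chr5:123227940-123228189, plus strand: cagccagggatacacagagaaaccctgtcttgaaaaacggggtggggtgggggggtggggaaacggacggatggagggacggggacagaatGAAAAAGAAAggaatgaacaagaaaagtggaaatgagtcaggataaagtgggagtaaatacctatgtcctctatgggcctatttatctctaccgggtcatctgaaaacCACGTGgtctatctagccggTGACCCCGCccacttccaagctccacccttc
Psmb10 upstream, chr8:105938445-105938642, minus strand: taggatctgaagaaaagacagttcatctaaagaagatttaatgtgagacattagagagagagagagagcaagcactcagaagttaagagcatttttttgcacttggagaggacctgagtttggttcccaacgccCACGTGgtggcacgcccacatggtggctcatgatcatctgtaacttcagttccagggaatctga
Psme3 upstream, chr11:101315963-101316212, plus strand: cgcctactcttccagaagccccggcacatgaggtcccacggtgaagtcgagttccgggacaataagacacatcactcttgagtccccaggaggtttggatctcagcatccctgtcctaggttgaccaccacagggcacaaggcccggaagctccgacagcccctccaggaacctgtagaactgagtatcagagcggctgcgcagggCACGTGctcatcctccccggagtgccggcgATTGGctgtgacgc

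The Psmd11 and Psmc4 runs held none of these motifs, whereas Psmd9 held an E-box, an antioxidant element and an interferon element, Psmb10 held an E-box, and Psme3 an E-box and a CCAAT box. Over all 49 genes, 41 had a RefSeq promoter window of 300 bases (250 before and 50 after the start), 44 windows in all. The E-box lay in 4 of these windows (9.09%, against 7.15% of all 32851 windows), those of Psma4, Psmb10, Psmd9 and Psme3. The antioxidant element lay in 6 (13.6%, against 12.4%) and the CCAAT box in 14 (31.8%, against 37.4%). The interferon element lay in 5 windows, of Psmb3, Psmd4, Psmd9, Psme1 and Psmg4 (11.4%, against 3.44%). The HNF4 motif CAAAGTCCA lay in 0 of the 44 windows, and in 0.475% of all windows. A match describes letters in these windows and is not a bound site.

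Levels are compared between genes per kilobase of transcript, using the longest protein-coding transcript that GENCODE marks as principal. Its length was 2911 bases for Psma2 and 914 for Psma7, so the order of genes depends on this choice. In H-WT, the highest were core subunits: Psma4 at 127 ± 20.8 CPM per kb (SD, n = 3), the catalytic Psmb6 at 126 and Psma7 at 123 ± 20.5, then Psmb4 at 100 and Psma6 at 96.2. Psme1, an interferon-inducible subunit of the 11S activator (PA28), was at 94.7 CPM per kb. The immunoproteasome subunits were lower than these, with Psmb10 at 30.7, Psmb9 at 12.9 and Psmb8 at 11.7 CPM per kb. The core subunits Psma2 (27.3) and the catalytic Psmb5 (20.9) lay below Psmb10. Assembly factors and the inhibitor were in the same low range, with Psmd9 at 15.5, above Psmb9 and Psmb8, and Psmf1 at 7.64, Psmd10 at 7.55 and Psmg3 at 4.99 CPM per kb below them. The spread of Psma4, Psmb6 and Psma7 was larger than the distances between their means, so their order is not resolved. Of the 49, 10 had a near-identical transcript of another gene (at least 95% identity over 200 bases or more), and the counts of Psmb5 and Psma3 are uncertain for that reason. The processed pseudogene Gm3375 (98.869% identity over 796 bases) had 23% as many counts as Psmb5, and 4 genes like Psma3 together had 12.6% as many as it. Psma8, the testis alpha subunit, was lowest at 0.465 CPM per kb, below the activator gene Psme2b at 2.8.

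**Figure D1:**
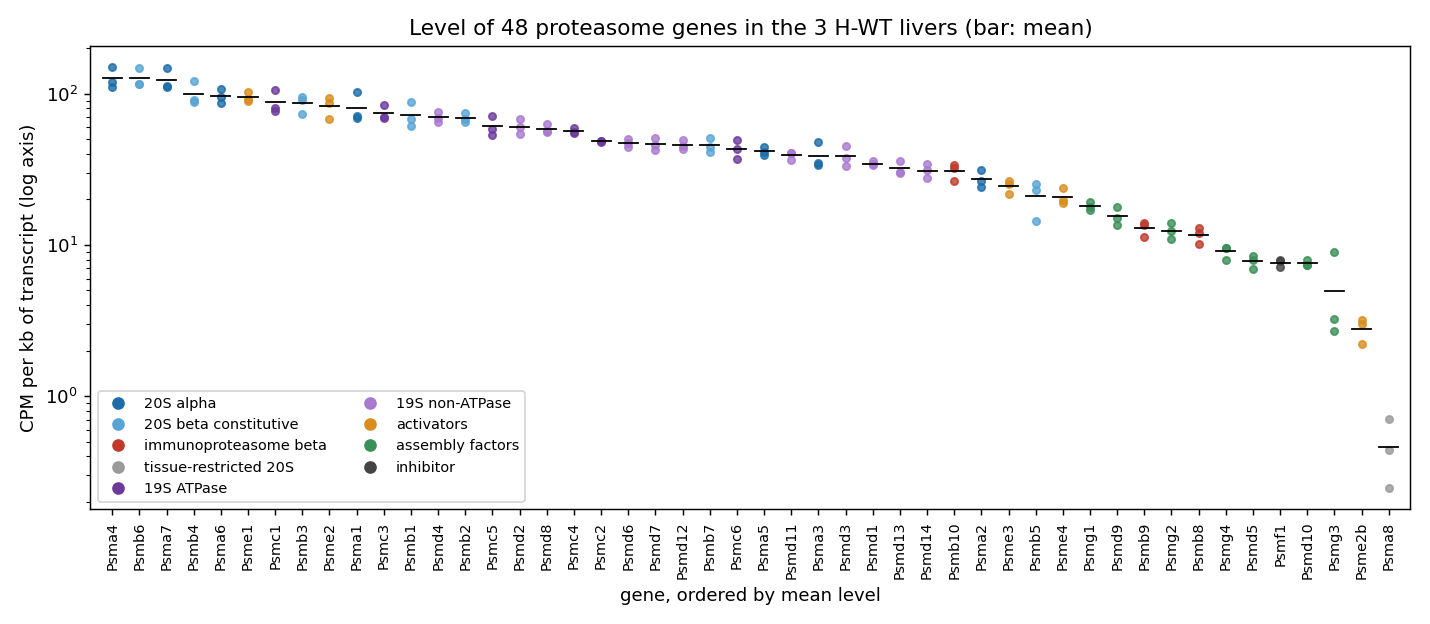
Level of each of the 48 tested proteasome genes in the 3 H-WT libraries (points, coloured by class), in TMM-scaled CPM per kilobase on a log axis; bars are means and genes are ordered by mean. The highest core subunits, such as Psma4 (127), lie above the immunoproteasome subunits Psmb10 (30.7), Psmb9 (12.9) and Psmb8 (11.7). The core subunits Psma2 (27.3) and Psmb5 (20.9) lie below Psmb10, and Psma8 (0.465) lies lowest.

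Among the 44 proteasome genes with a mean of 10 CPM or more, the highest group mean exceeded the lowest by a median of 1.27-fold, from 1.08-fold for Psma2 to 2.18-fold for Psmb9. The median over all 8166 genes at that level was 1.57-fold. The highest of the 6 group means was most often that of BH-HF-KO (19 genes). The lowest was most often that of H-KO (19 genes) or BH-KO (10 genes). These counts were not made over all genes, so whether they are particular to the proteasome genes is not known. Summed over all members, the level was 3471 ± 328 CPM in H-WT and 3091 ± 69.7 in H-KO, 3274 ± 221 in BH-WT and 3281 ± 102 in BH-KO, and 3411 ± 88.3 in BH-HF-WT and 3578 ± 100 in BH-HF-KO (SD, n = 3). The H-KO and BH-KO sums depended on the scaling. Against plain library totals the H-KO sum was 4157 CPM, above the 3289 CPM of H-WT. The BH-KO sum was then 3762 ± 845 CPM against 2973 ± 107 in BH-WT (SD, n = 3), with BH-KO replicate 1 at 2787. The differences below use TMM scaling, which put the median difference of all genes tested at 0 in H-KO and 0.03 in BH-KO, and they are relative to that median. With plain totals that median was 0.50 in H-KO and 0.35 in BH-KO.

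**Figure D2:**
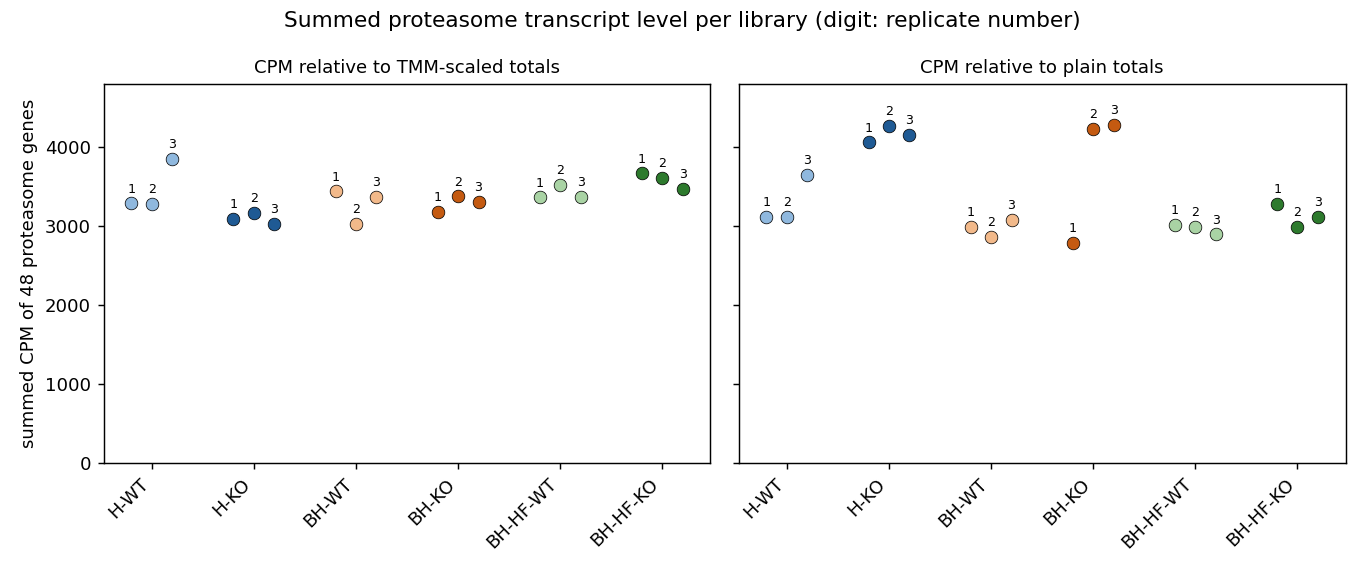
Summed level of the proteasome genes in each of the 18 libraries, in CPM after TMM scaling and in CPM of plain library totals; the digit is the replicate number. H-KO lies below H-WT after TMM scaling (means 3091 and 3471) and above it with plain totals (4157 and 3289), and BH-KO replicate 1 lies below replicates 2 and 3 with plain totals.

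**Figure D3:**
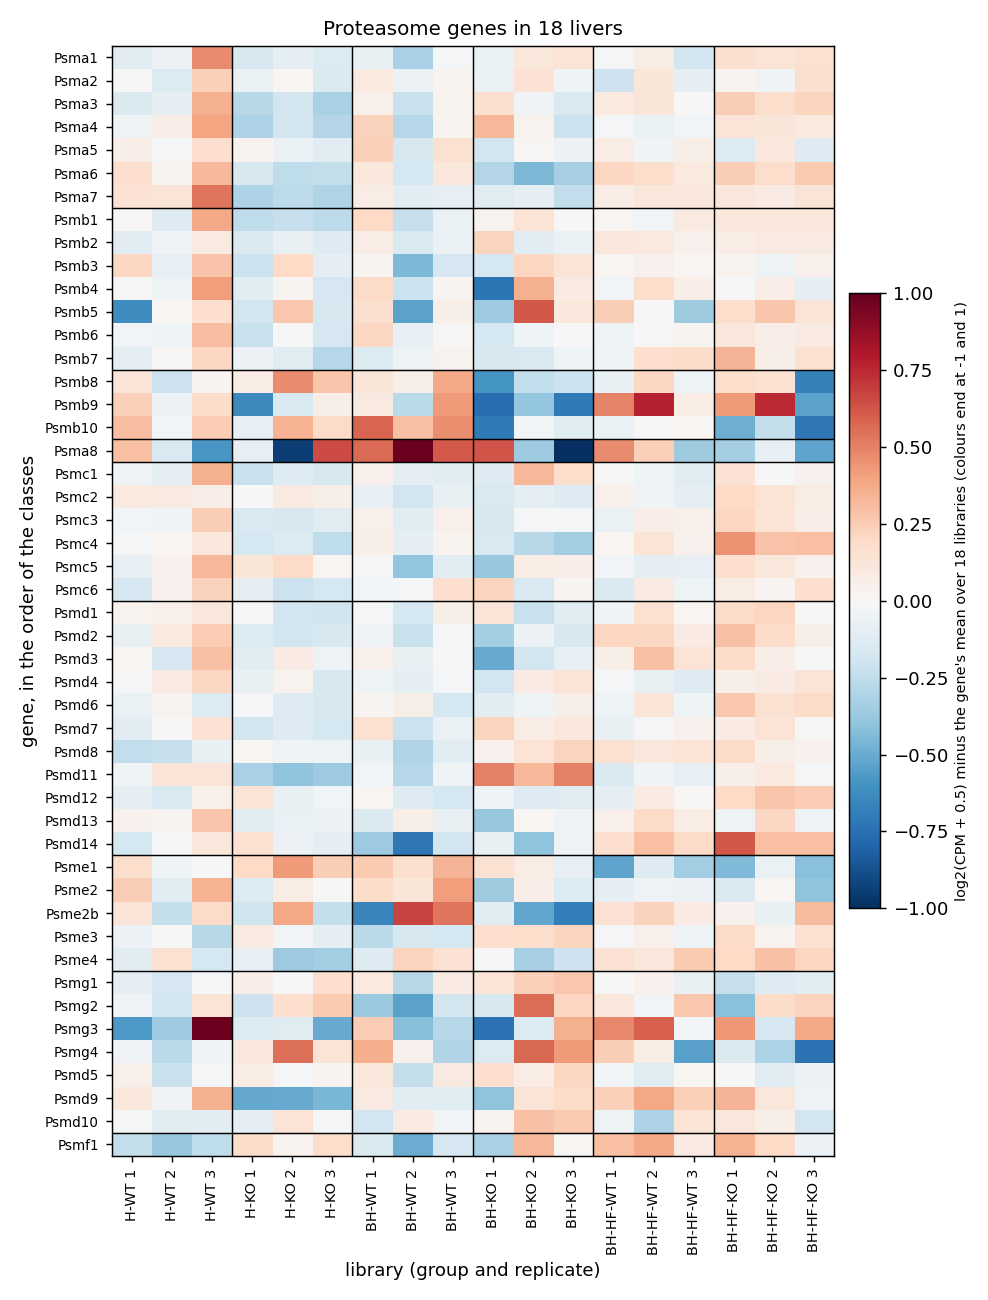
Level of each tested proteasome gene in each library, as log2(CPM + 0.5) less that gene's mean over the 18 libraries, with genes ordered by class and libraries by group. BH-KO is high for Psmd11 and low for the immunoproteasome subunits, and H-WT replicate 3 is the highest of its group for 35 of 48 genes.

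In H-KO liver, 8 of the 48 tested proteasome genes differed from H-WT (edgeR quasi-likelihood test, adjusted p under 0.05), against 34.9% of all genes tested. Psmf1 rose (15.8% of all genes rose), and Psma4, Psma6, Psma7, Psmb1, Psmc4, Psmd11 and Psmd9 fell (19.1% of all genes fell). Of the 48, 5 had all H-KO libraries above all H-WT libraries and 14 had all below, while 51.9% of all genes tested had groups that did not overlap. For 32 of 48 the 95% interval of the difference lay within 1.5-fold either way, which held for 24.3% of all genes tested. The proteasome genes' median log2 difference was -0.16, and that of all genes tested was 0. With upper-quartile scaling, which moved the median of all genes by 0.15, the genes' median was -0.01 and 6 rose (Psmd12, Psmd8, Psme1, Psme3, Psmf1 and Psmg1) while 3 fell (Psma7, Psmd11 and Psmd9). Of all genes, 3338 rose and 2063 fell with that scaling. With plain library totals 20 rose and 0 fell (of all genes, 6000 rose and 1291 fell), the genes' median being 0.34 against 0.50 for all genes, so the falls are falls relative to the median gene. Without H-WT replicate 3, the library that was high for most of these genes, 4 of the 8 calls were left (Psma6, Psma7, Psmd11 and Psmd9) and the median was -0.08, while the count over all genes went from 4871 to 4015. The same 4 were left when each H-KO library was left out in turn, with 3787 to 3888 of all genes called.

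The alpha ring of the core carried 3 of these 7 falls. Psma7 stood at 102, 101 and 134 CPM in H-WT and at 74.3, 77 and 74.8 in H-KO. It fell by 0.58 on the log2 scale (SE 0.10, edgeR adjusted p = 0.000662), and no H-KO library reached the lowest H-WT library. Psma6 was at 99.5, 90.2 and 111 CPM in H-WT and at 79, 74.2 and 74.8 in H-KO, again without overlap, and fell by 0.40 (SE 0.10, edgeR adjusted p = 0.00523). Psma4 was at 129, 139 and 175 CPM against 107, 117 and 108, a fall of 0.42 (SE 0.15, edgeR adjusted p = 0.0398) that did not pass without H-WT replicate 3 (-0.28, edgeR adjusted p = 0.186). All 7 alpha subunits had negative differences in H-KO, with a median of -0.32, but with upper-quartile scaling 5 of the 7 did and with plain totals 1. Of the constitutive beta subunits, Psmb1, a structural subunit, fell, from 119, 108 and 154 CPM to 99, 101 and 98.6. Its log2 difference was -0.35 (SE 0.13, edgeR adjusted p = 0.0387), and -0.19 without H-WT replicate 3 (edgeR adjusted p = 0.221). The other 6, among them the catalytic Psmb5, Psmb6 and Psmb7, did not pass, and the median of all 7 was -0.21.

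The regulatory cap and its assembly factors held the other falls. PSMD11 (Rpn6) is the cap subunit that clamps the lid onto the core, and its gene lies on chr11:80428615-80473248 (plus strand, GENCODE M21). Psmd11 was at 103, 116 and 116 CPM in H-WT and at 84.5, 80.1 and 82 in H-KO. All H-KO libraries were below all H-WT libraries, and Psmd11 fell by 0.44 (SE 0.09, edgeR adjusted p = 0.00198). PSMD9, a chaperone that escorts cap ATPases during assembly, is encoded at chr5:123169413-123250131 (plus strand). Psmd9 had the largest fall of the members in H-KO, from 39, 35.4 and 46.4 CPM to 25.2, 25.4 and 26.3, without overlap (log2 difference -0.65, SE 0.15, edgeR adjusted p = 0.00298). Its exons overlap those of the annotated gene Gm26745 over 1849 bases, and no strand setting of the counting is given, so reads of the pair may not be told apart. Psmc4, a cap ATPase on chr7:28041707-28050101 (minus strand), was at 78.6, 80.2 and 85 CPM in H-WT and at 69.9, 71.9 and 66.3 in H-KO, a fall of 0.23 (SE 0.08, edgeR adjusted p = 0.0467) that did not pass when any 1 library of either group was left out. The inhibitor Psmf1 (PI31), on chr2:151715812-151744186 (minus strand), rose from 30.2, 27.3 and 29.8 CPM to 40.7, 36.6 and 40.4, without overlap (log2 difference 0.43, SE 0.15, edgeR adjusted p = 0.0389), and this call too was lost whenever 1 library of either group was left out.

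The immunoproteasome and activator genes did not pass in H-KO. Psmb8 was at 21, 16.5 and 19.5 CPM in H-WT and at 20.2, 26.8 and 23.3 in H-KO (log2 difference 0.30, edgeR adjusted p = 0.259). Psmb9 was at 18.9, 15.3 and 18.2 CPM against 10.1, 14.3 and 16.7 (-0.35, edgeR adjusted p = 0.376). Psmb10 was at 43.9, 34.6 and 42.3 CPM against 33.4, 45.1 and 40.4 (-0.02, edgeR adjusted p = 0.939). The groups overlapped for all 3, and the 95% interval of the Psmb10 difference ran from -0.38 to 0.34. Psme1 was at 115, 98.9 and 102 CPM in H-WT and at 117, 137 and 121 in H-KO, above it without overlap (0.25, edgeR adjusted p = 0.149). Psme2 (-0.20), Psme3 (0.10), Psme2b (-0.03) and the large activator gene Psme4 (PA200, -0.22) overlapped between the groups.

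**Figure D4:**
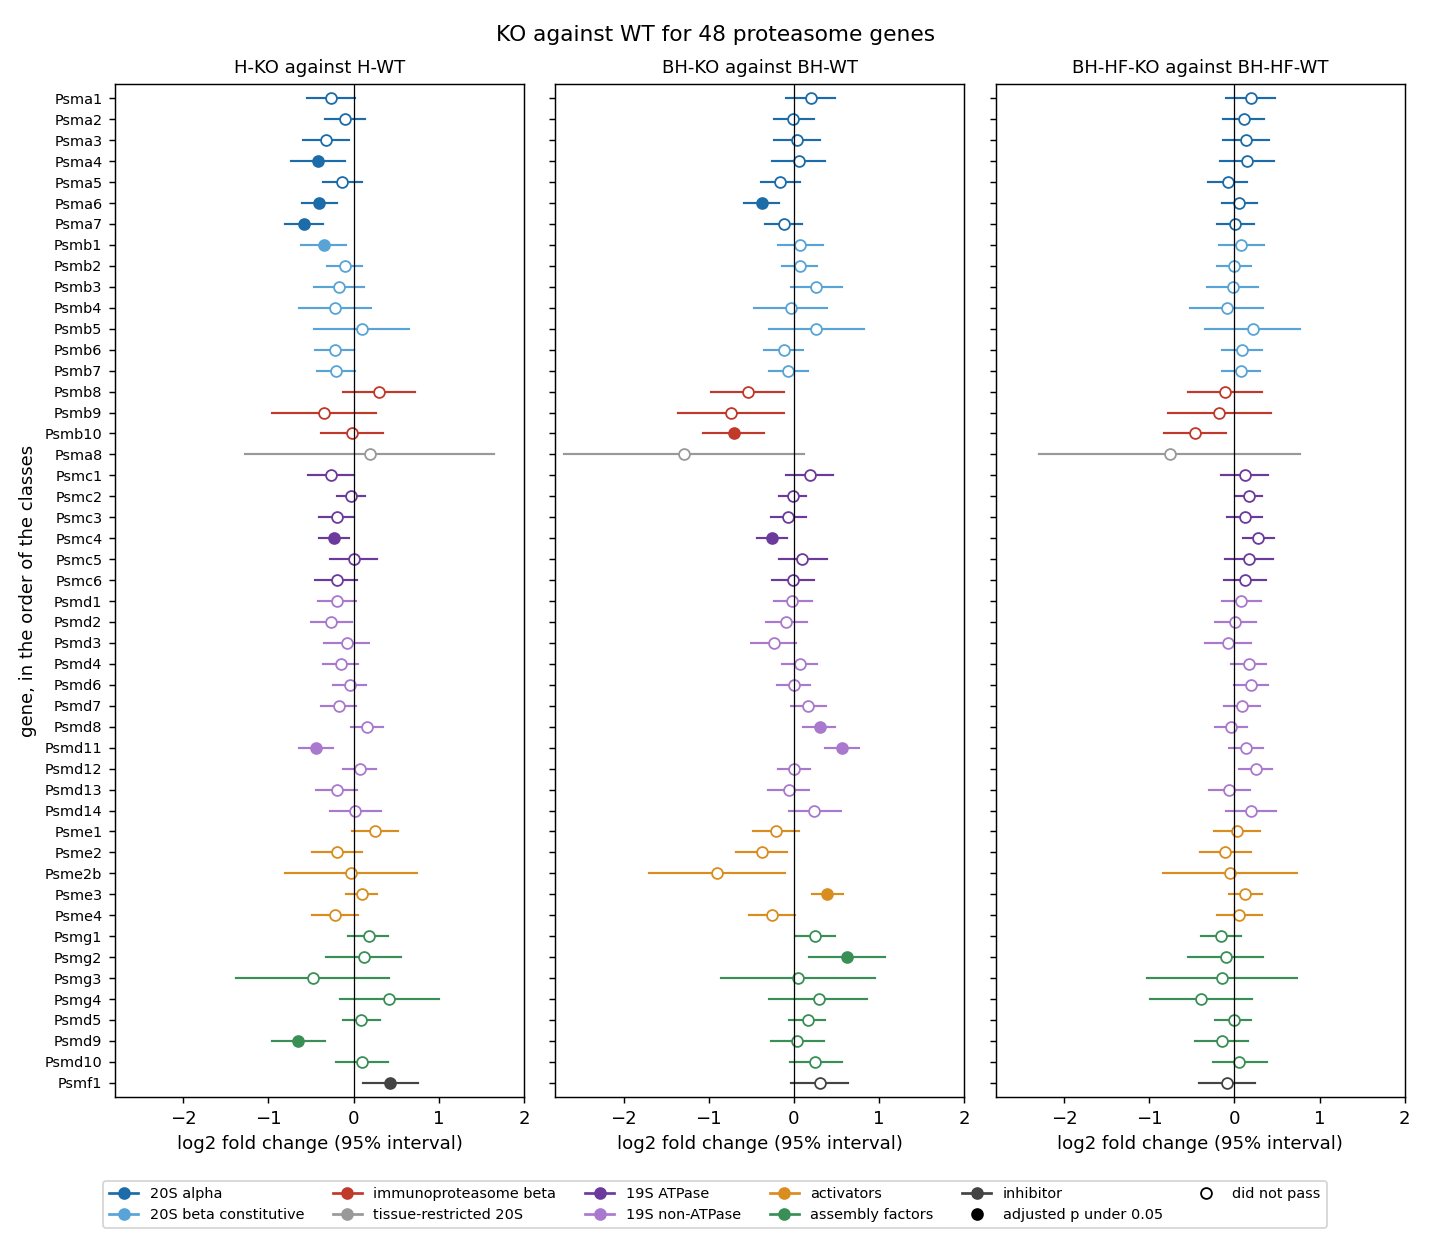
Log2 difference of each tested proteasome gene between KO and WT in the H, BH and BH-HF pairs, with 95% intervals; filled points passed the edgeR test at an adjusted p of 0.05. Psmd11 lies at -0.44 in H and 0.56 in BH, Psmb10 at -0.71 in BH, and no gene passed in BH-HF.

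In BH-KO liver, 7 of 48 proteasome genes differed from BH-WT (edgeR), against 28.6% of all genes tested. Psmd11, Psmd8, Psme3 and Psmg2 rose and Psma6, Psmb10 and Psmc4 fell, where 14.3% of all genes rose and 14.3% fell. Of the 48, 5 lay above BH-WT and 8 below it without overlap (34.9% of all genes tested did not overlap), and 35 had a 95% interval within 1.5-fold (25.3% of all genes tested). The median log2 difference was 0, against 0.03 for all genes. With upper-quartile scaling, which put the median of all genes at 0.11, 6 rose and 2 fell (Psma6 and Psmb10), the added rises being Psmd7 and Psmg1. Of all genes, 2560 rose and 1720 fell with that scaling. With plain totals 19 rose and 0 fell (of all genes, 4351 rose and 1203 fell). Without BH-KO replicate 1, the library that stood apart, 12 proteasome genes passed, and the count over all genes went from 3990 to 5916. Without BH-KO replicate 2 or 3, 4 proteasome genes passed, and 2330 or 2416 of all genes. When H-WT replicate 3 and BH-KO replicate 1 were both left out, an alternative chosen after the data were seen, 5 proteasome genes passed in H-KO and 14 in BH-KO (8 rose and 6 fell), and 4971 and 6198 of all genes.

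Psmd11 had the smallest adjusted p of the members. It was at 104, 86.8 and 103 CPM in BH-WT and at 150, 133 and 150 in BH-KO. Every BH-KO library was above every other library of the series, and Psmd11 rose by 0.56 (SE 0.09, edgeR adjusted p = 0.000622). Leaving out BH-KO replicate 1 gave 0.53 (edgeR adjusted p = 0.000613). A near-identical gene, A730017L22Rik (97.935% identity over 1501 bases), had 14.6% as many counts as Psmd11. It was at 17.3 ± 1.82 CPM in BH-WT and 14.4 ± 3.93 in BH-KO (SD, n = 3). With the counts of both genes summed, Psmd11 still rose, by 0.46 (edgeR adjusted p = 0.0032). Of the other cap subunits, the non-ATPase Psmd8 was at 96.4, 82.7 and 94.5 CPM in BH-WT and at 105, 112 and 119 in BH-KO, without overlap. It rose by 0.30 (SE 0.09, edgeR adjusted p = 0.0222), with 0.23 to 0.34 when each library was left out, missing the threshold without BH-WT replicate 2 or BH-KO replicate 2 or 3. Psmc4 was at 82.4, 73.7 and 81.2 CPM against 71.1, 65 and 62.1, a fall of 0.26 (SE 0.09, edgeR adjusted p = 0.032). That call did not pass without BH-WT replicate 1 or 3 or BH-KO replicate 2 or 3, and with plain totals the difference was 0.06.

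The immunoproteasome subunits were low in BH-KO. PSMB10 replaces the trypsin-like subunit PSMB7, and its gene lies on chr8:105935735-105938444 (minus strand). Psmb10 was at 53.2, 43.5 and 49.1 CPM in BH-WT and at 21.5, 34.7 and 32.4 in BH-KO. It fell by 0.71 (SE 0.17, edgeR adjusted p = 0.00677), with all BH-KO libraries below all BH-WT libraries, and by 0.53 without BH-KO replicate 1 (edgeR adjusted p = 0.0106). With plain totals the difference was -0.34 (edgeR adjusted p = 0.231). PSMB8 replaces the chymotrypsin-like subunit PSMB5, and PSMB9 the caspase-like PSMB6. Psmb8 was at 20.9, 20 and 25.1 CPM in BH-WT and at 12.5, 16.1 and 16.4 in BH-KO (log2 difference -0.54, SE 0.20, edgeR adjusted p = 0.053). Psmb9 was at 17, 13.2 and 21.7 CPM against 9.21, 12.1 and 9.61 (-0.74, SE 0.29, edgeR adjusted p = 0.07). These groups did not overlap for Psmb8 or Psmb9 either, but the differences did not pass. The 3 differences were negative under each of the 4 scalings tried. Summed, the 3 subunits were at 91.06, 76.72 and 95.91 CPM in BH-WT and at 43.22, 62.86 and 58.44 in BH-KO. Psmb8 and Psmb9 lie close together in the MHC region of chromosome 17 (chr17:34197721-34201454, plus strand, and chr17:34181987-34187764, minus strand), and their exons overlap those of neighbouring genes, Gm20496 over 498 bases for Psmb8 and Tap1 over 212 bases for Psmb9, so some reads may be shared.

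Genes of MHC class I antigen processing were given beside them, from a list of 13. In BH-KO 0 of the 13 rose and 4 fell (Irf1, Erap1, Tap1 and H2-K1), with a median of -0.34. That is 30.8% of the list, all falls, against 28.6% of all genes past the test and 14.3% that fell. The largest falls were in Irf1, an interferon-response transcription factor (-0.95), and H2-K1, a class I heavy chain (-0.69). In H-KO 2 of the 13 rose and 0 fell: H2-D1 by 0.55 and the class I regulator Nlrc5 by 0.75. These are 15.4% of the list, against 34.9% of all genes past the test and 15.8% that rose. Macrophages are a rich source of immunoproteasome subunits. Of 8 macrophage markers all 8 were lower in BH-KO, with a median of -2.85. Past the test, 6 of them fell (75%, against 28.6% of all genes past the test and 14.3% that fell). The markers' summed level ranged over 261–1140 CPM for the BH-WT libraries and over 53.9–330 CPM for BH-KO, so these ranges overlapped. For H-WT it ranged over 67.5–404 CPM, for H-KO over 136–206, for BH-HF-WT over 71.4–236 and for BH-HF-KO over 36.9–162. Of 9 lymphocyte and leukocyte markers only 3 were tested, and Ptprc fell in BH-KO by 1.95, while Cd3e, Cd3d, Ms4a1, Nkg7, Gzma and Trbc2 had at most 13 counts in any library. Of 4 dendritic cell markers 1 was tested, and it did not pass in BH-KO (0.11). The part of these cells in the immunoproteasome differences was not tested, and in whole liver fewer cells of a type and less RNA per cell cannot be told apart.

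Of the activators, Psme1 and Psme2 encode the interferon-inducible PA28 ring that sits on the core in place of the 19S cap. Psme1 (chr14:55578123-55581529, plus strand) was at 122, 114 and 129 CPM in BH-WT and at 113, 107 and 96 in BH-KO (log2 difference -0.21, edgeR adjusted p = 0.223). Psme2 was at 80.3, 76.8 and 94.3 CPM against 55.1, 74 and 63.9 (-0.38, SE 0.14, edgeR adjusted p = 0.053), and shares 99.37% of 794 bases with Psme2b, which was at low levels throughout, so their counts are uncertain. Neither passed, although both were below BH-WT without overlap. Psme3 encodes the nuclear activator PA28 gamma, and its gene lies on chr11:101316213-101323537 (plus strand). Psme3 was at 58.4, 63 and 62.3 CPM in BH-WT and at 79.3, 79.6 and 82.4 in BH-KO, and the 3 BH-KO values were above every BH-WT value. It rose by 0.39 (SE 0.09, edgeR adjusted p = 0.00459), and by 0.40 without BH-KO replicate 1.

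In the core, Psma6 fell in BH-KO as it had in H-KO, from 95, 78.2 and 95.4 CPM to 72, 64.7 and 70 (log2 difference -0.38, SE 0.10, edgeR adjusted p = 0.0108), without overlap, though it did not pass without BH-KO replicate 2. No other alpha subunit and 0 of the 7 constitutive beta subunits passed in BH-KO. The assembly factors had positive differences in 7 of 7 genes under each of the 4 scalings, and their median with TMM was 0.25. Only Psmg2, a chaperone of the alpha ring, passed. It was at 10.2, 9.07 and 11.7 CPM in BH-WT and at 11.9, 19.9 and 15.6 in BH-KO, so that BH-KO replicate 1 lay close to BH-WT (log2 difference 0.62, SE 0.21, edgeR adjusted p = 0.0364). The call did not pass without BH-WT replicate 1 or 2 or BH-KO replicate 2 or 3, and the difference was 0.78 without BH-KO replicate 1 (edgeR adjusted p = 0.00638).

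**Figure D5:**
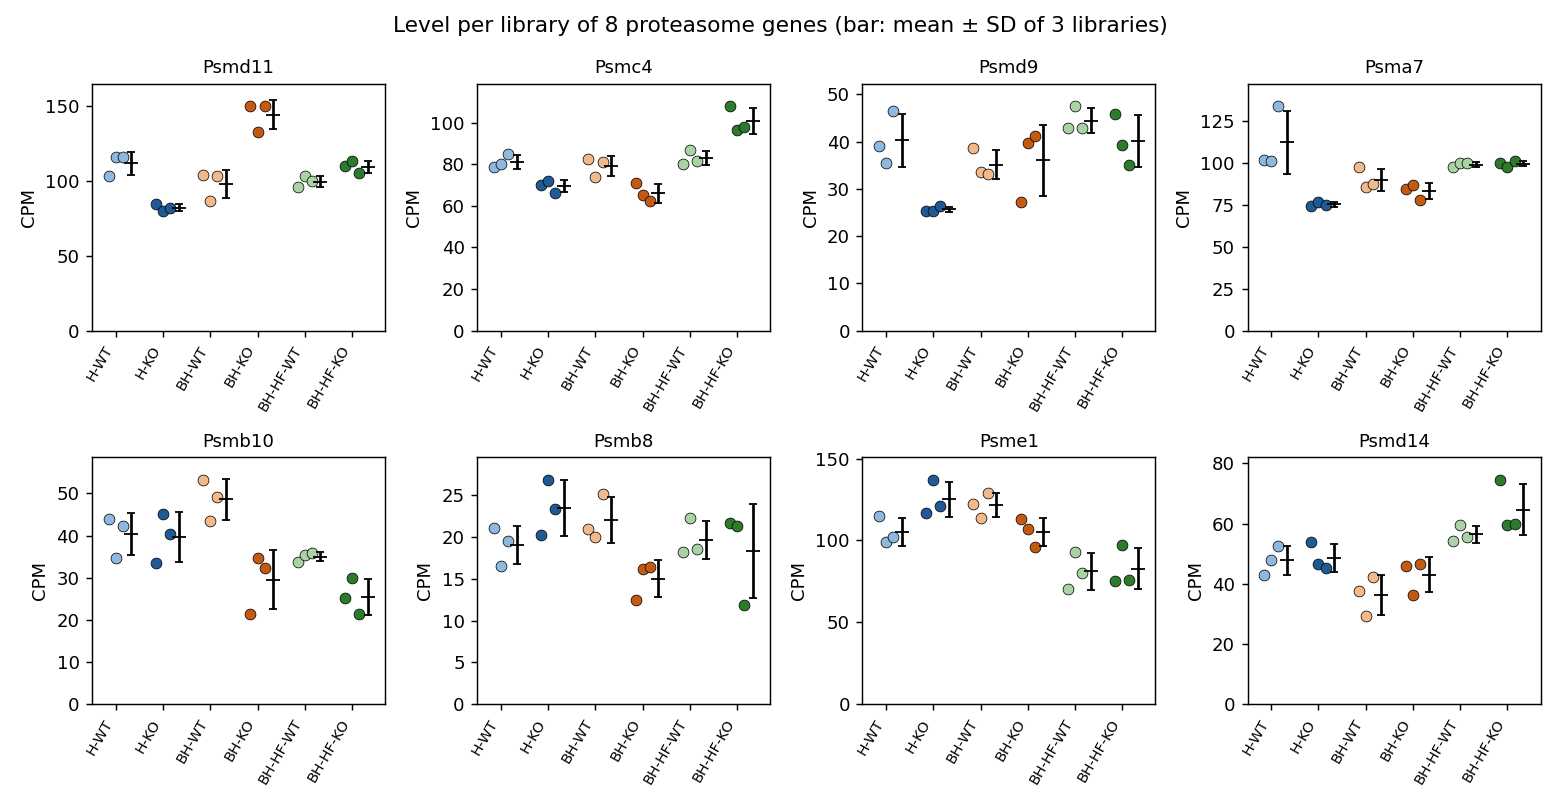
TMM-scaled CPM of Psmd11, Psmc4, Psmd9, Psma7, Psmb10, Psmb8, Psme1 and Psmd14 in each of the 18 libraries by group; points are libraries and bars are group means ± SD (n = 3). The 3 BH-KO values of Psmd11 (133 to 150 CPM) lie above all others, and the BH-HF-WT values of Psme1 (70.4 to 93.2 CPM) lie below all BH-WT values (114 to 129 CPM).

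In the libraries labelled BH-HF-KO, 0 of 48 proteasome genes differed from BH-HF-WT (edgeR), and 0% of all genes tested did. DESeq2 and limma also called 0 of the 48, and the smallest adjusted p was 1. At an unadjusted p under 0.05, 4 of the 48 and 488 of all genes passed. The 4 were Psmb10, with a log2 difference of -0.46, and Psmc2 (0.17), Psmc4 (0.28) and Psmd12 (0.25). For 41 of the 48 the 95% interval lay within 1.5-fold (44.1% of all genes tested). Without overlap, 13 genes were higher in BH-HF-KO and 2 lower (10.4% of all genes tested did not overlap). Psmc4 was at 80.3, 86.9 and 81.6 CPM in BH-HF-WT and at 108, 96.3 and 97.8 in BH-HF-KO, the highest Psmc4 values of the series. The 6 cap ATPases all had positive differences under each scaling tried, from 0.12 to 0.28 with TMM. Psmb10 was at 33.7, 35.5 and 35.8 CPM against 25.1, 29.9 and 21.3, and Psmd11 at 95.8, 103 and 99.9 against 110, 113 and 105, both without overlap and neither past the test. Psmb8 was at 18.2, 22.2 and 18.5 CPM in BH-HF-WT and at 21.7, 21.3 and 11.8 in BH-HF-KO, and Psmb9 at 22.7, 27.6 and 16.9 against 21.7, 27.2 and 10.9. For both, replicate 3 of BH-HF-KO was low and the other libraries overlapped. Psme1 was at 75, 97.4 and 75.9 CPM in BH-HF-KO, within the BH-HF-WT range except at its top.

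The KO effects of the H and BH lines were then compared directly, as the KO-minus-WT difference in BH less that in H. The floxed Arntl allele is carried by the BH line alone, so line and Arntl allele cannot be told apart. Of the 48 genes only Psmd11 passed (edgeR, 6.06% of all genes tested passed). The difference of its log2 differences was 1 (SE 0.13, 95% interval 0.72 to 1.28, edgeR adjusted p = 0.000938), with a fall in H-KO and a rise in BH-KO. With plain totals the H-KO difference of Psmd11 was 0.06, that in BH-KO 0.89, and the comparison of effects gave 0.82 (edgeR adjusted p = 0.0157). It was 0.92 to 1.06 when each library was left out in turn, with adjusted p at most 0.00501 (edgeR), and 0.90 with A730017L22Rik summed in (edgeR adjusted p = 0.00235). Psmd9 (0.69, adjusted p = 0.0589), Psma7 (0.46, 0.0718), Psmb8 (-0.85, 0.0843) and Psmb10 (-0.69, 0.0955) did not pass in edgeR. Without BH-KO replicate 1, 3 passed (Psmc1, Psmd11 and Psmd9), while the count over all genes went from 846 to 1247. For the KO effect in BH-HF less that in BH, Psmc4 alone passed (edgeR, 6.1% of all genes tested passed). It fell in BH-KO and was at the higher BH-HF-KO values given above, and the difference was 0.54 (SE 0.12, 95% interval 0.29 to 0.79, edgeR adjusted p = 0.0163). That call did not pass without BH-KO replicate 3 or BH-HF-KO replicate 1, and without BH-KO replicate 1 it was 0.60 (edgeR adjusted p = 0.00176), among 4 proteasome genes that passed, while the count over all genes went from 851 to 3046. With plain totals it was 0.23 (edgeR adjusted p = 0.338). Age and diet differ between these pairs and the Arntl levels above differ between the KO groups, and their parts cannot be told apart.

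Set directly against H-KO, BH-KO differed for 4 of 48 proteasome genes (edgeR, 16.4% of all genes tested). Here too line and Arntl allele cannot be told apart. Psmd11, Psmd7 and Psmd9 were higher (10.1% of all genes) and Psmb8 was lower (6.3% of all genes). The values were 0.81 for Psmd11 (SE 0.09, edgeR adjusted p = 7e-05), 0.49 for Psmd9 (SE 0.15, edgeR adjusted p = 0.03), 0.30 for Psmd7 (SE 0.10, edgeR adjusted p = 0.0498) and -0.64 for Psmb8 (SE 0.20, edgeR adjusted p = 0.0387). PSMD7 (Rpn8) is the partner of the deubiquitinase PSMD14 in the lid. Psmd7 was at 64, 66.5 and 64.3 CPM in H-KO and at 85, 76.4 and 78.2 in BH-KO. Psmd9 was at 27.3, 39.6 and 41.1 CPM in BH-KO, where replicate 1 was near the H-KO values, and its difference was 0.66 without that library (edgeR adjusted p = 0.00259). Psmb8 was at 20.2, 26.8 and 23.3 CPM in H-KO, above all BH-KO values, and did not pass when H-KO replicate 2 or 3 or any BH-KO library was left out. Only the Psmd11 call passed with every library left out in turn. Without H-KO replicate 2 or 3 or BH-KO replicate 2 or 3, 1 of the 48 passed, and 1191 to 2339 of all genes. With upper-quartile scaling 1 rose and 2 fell, where 1076 of all genes rose and 1127 fell. With plain totals 1 rose and 3 fell, where 587 of all genes rose and 1341 fell. With TMM 1412 of all genes rose and 880 fell.

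Between the control groups BH-WT and H-WT, 0 of 48 proteasome genes passed (edgeR, 0.165% of all genes tested), with a smallest adjusted p of 0.339. At an unadjusted p under 0.05, 4 of the 48 and 1299 of all 13958 genes tested passed. The 4 were Psma7, Psmb3, Psmc2 and Psmd14. BH-HF-WT, 35 weeks older and fed the high-fat diet, differed from BH-WT for 2 of 48 (edgeR, 7% of all genes tested). PSMD14 (Rpn11) is the cap enzyme that removes ubiquitin from the substrate, and its gene lies on chr2:61711694-61800376 (plus strand). Psmd14 was at 37.5, 29.2 and 42.4 CPM in BH-WT and at 54.3, 59.6 and 55.4 in BH-HF-WT. It rose by 0.64 (SE 0.14, edgeR adjusted p = 0.0176, 2.79% of all genes rose), without overlap. With each library left out in turn the difference was 0.50 to 0.76, and it missed the threshold without replicate 2 of either group (largest edgeR adjusted p = 0.0966). Psme1 was at 70.4, 93.2 and 80 CPM in BH-HF-WT, below all BH-WT values, and fell by 0.58 (SE 0.13, edgeR adjusted p = 0.0164, 4.21% of all genes fell). Its difference was -0.69 to -0.49 with each library left out, and missed the threshold without BH-WT replicate 3 or BH-HF-WT replicate 1 or 3 (largest edgeR adjusted p = 0.0579). Its exons overlap Emc9 over 14 bases. In the same comparison Psmf1 (0.53, adjusted p = 0.0515) and Psmb10 (-0.47, adjusted p = 0.0999) did not pass in edgeR. With DESeq2 size factors 3 rose and 1 fell, adding Psmd8 and Psmf1, where 426 of all genes rose and 562 fell. Beside the Psme1 value, 3 of the 13 class I genes fell (Irf1, Tapbp and H2-K1) and all 8 macrophage markers were lower, with a median of -2.13, of which Clec4f alone passed (-2.42), where 7% of all genes passed. Their part was not tested.

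Other genes of the pathway were counted from lists. Of 20 tested genes for proteasome cofactors and regulators, 0 rose and 9 fell in H-KO (45% past the test, against 34.9% of all genes, of which 19.1% fell), with a median of -0.29. These were Ubqln4, Uchl5, Ngly1, Txnl1, Akirin2, Pomp, Nfe2l1, Adrm1 and Ddi2. With upper-quartile scaling 2 rose and 3 fell (of all genes, 3338 rose and 2063 fell). With plain totals 5 rose and 0 fell (of all genes, 6000 rose and 1291 fell). Nfe2l1, the transcription factor that induces subunit genes, was at 162, 143 and 141 CPM in H-WT and at 104, 103 and 94.6 in H-KO, and fell by 0.56 (edgeR adjusted p = 0.000504). In BH-KO it was at 101, 90.1 and 99.9 CPM against 141, 135 and 146 in BH-WT, a fall of 0.54 (edgeR adjusted p = 0.00113), and there the ubiquitin ligase gene Ube3a (0.52), the proteasome import factor gene Akirin2 (0.36) and the deubiquitinase gene Usp14 (0.35) rose, so that 20% of the list passed against 28.6% of all genes. These values are with TMM scaling, and any link between the Nfe2l1 level and the proteasome genes was not tested. Pomp, the maturation factor of the core, fell in H-KO by 0.44 (edgeR adjusted p = 0.0238). In BH-HF-KO 0 of the 20 passed. Between BH-KO and H-KO 7 were higher in BH-KO and 0 lower, or 35% of the list. Of all genes, 16.4% passed in that comparison and 10.1% were higher. Of 14 tested genes for ubiquitin supply and the p97 segregase, 1 rose and 2 fell in H-KO (21.4% past the test, against 34.9% of all genes). In BH-KO Rps27a rose by 0.48 and the polyubiquitin gene Ubb fell by 0.77 (14.3% of the list, against 28.6% of all genes), and 0 passed in BH-HF-KO. In the remaining marker lists, 0 of 4 endothelial, 2 of 4 stellate and 1 of 3 cholangiocyte markers passed in H-KO, where 34.9% of all genes did, and 1, 0 and 0 passed in BH-KO, where 28.6% did.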

How the data were processed

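Liver RNA of 18 mouse samples was measured by RNA sequencing. The authors deposited 1 table of raw counts per gene, and STAR 2.6 and the mm10 build are named in the submitters' processing notes; no source used here names the counting program, annotation or strand setting. Totals of 6846471 to 9816124 counts limit precision for low genes. Groups were taken from the sample labels. Genes were filtered with filterByExpr (minimum count 10), scaled by TMM and tested with edgeR 4.0.16 (robust quasi-likelihood F-test, 18 libraries in 6 groups, 12 residual degrees of freedom, R 4.3.3) in 8 comparisons, with Benjamini-Hochberg adjustment over 13958 genes at 0.05. CPM are scaled by TMM unless stated. The script was tested on simulated data for H-KO against H-WT. It recovered 8 of 100 genes changed by 0.5 on the log2 scale and 75 of 100 changed by 1. Far fewer genes were changed there than were called here, so these shares need not hold here. A difference that did not pass is not evidence of no change. The members and lists were chosen with earlier results of these data known. Values in every library are given for the largest called change of each class, for members that passed a comparison of settings or of effects, and for immunoproteasome and 11S genes; other members are given by counts. The alternatives were other scalings (upper quartile, DESeq2 size factors, plain totals), other filters, DESeq2 1.42.0, limma 3.58.1 voom, a replicate block, an adjusted p of 0.01, each pair fitted alone, and leaving out each library. Coordinates and transcript lengths are from GENCODE M21 (mm10), and overlaps are exonic.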

Additional observations from a re-analysis of the deposited data

Results flagged for a closer look

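For Psmd11 the KO difference itself differed between the BH and H lines, by 1 on the log2 scale (SE 0.13, edgeR adjusted p = 0.000938). For Psmc4 it differed between the BH-HF and BH pairs, by 0.54 (SE 0.12, edgeR adjusted p = 0.0163).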

How the results depend on the processing

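Counts of proteasome genes past the test moved by more than 1.5 times under these settings. Brackets after a count hold the count over all genes. In the main fit the count over all genes was 4871 for H-KO, 3990 for BH-KO and 2292 for BH-KO against H-KO. It was 977 for BH-HF-WT against BH-WT and 846 for the BH effect less the H effect. For the BH-HF effect less the BH effect it was 851. DESeq2 size factors gave 4 for BH-HF-WT against BH-WT, and upper-quartile factors gave 2 for the BH-HF effect less the BH effect. Plain library totals gave 20 (7291) for H-KO and 19 (5554) for BH-KO. Under them the summed level gave a log2 ratio of 0.34 in H-KO and 0.34 in BH-KO, against -0.17 and 0 with TMM, and the differences of Psma4 (0.09), Psma6 (0.11), Psmb1 (0.15), Psmc4 (0.28) and Psmd11 (0.06) in H-KO and of Psmc4 in BH-KO (0.06) turned positive. No filter on low counts gave 5 (4154) for H-KO, 4 (3067) for BH-KO and 2 (1597) for BH-KO against H-KO. It gave 0 (590) for the BH-HF effect less the BH effect. The DESeq2 test gave 4 (1495) for BH-HF-WT against BH-WT and 3 (1394) for the BH effect less the H effect. It gave 3 (1315) for the BH-HF effect less the BH effect. At an adjusted p of 0.01 the counts were 4 (2972) for H-KO, 3 (1821) for BH-KO and 1 (910) for BH-KO against H-KO. They were 0 (160) for BH-HF-WT against BH-WT and 0 (205) for the BH-HF effect less the BH effect. Fitting only the compared groups gave 1 (1096) for BH-KO and 1 (919) for BH-KO against H-KO. It gave 0 (431) for the BH-HF effect less the BH effect. Leaving out each library in turn gave 4 to 8 (3787 to 4284) for H-KO and 4 to 12 (2330 to 5916) for BH-KO. For BH-KO against H-KO it gave 1 to 3 (1191 to 2339), and for BH-HF-WT against BH-WT 1 to 2 (225 to 1014). The BH effect less the H effect had 1 to 3 (344 to 1247), and the BH-HF effect less the BH effect 0 to 4 (353 to 3046). BH-WT against H-WT had 0 (7 to 18) and BH-HF-KO against BH-HF-WT 0 (0 to 1). Leaving out H-WT replicate 3 and BH-KO replicate 1 together gave 5 (4971) for H-KO and 14 (6198) for BH-KO. The deviations of same-numbered samples from their group means had correlations of -0.25 to 0.13. With 3 libraries a group these cannot decide whether replicate numbers mark a shared batch or pairing. A replicate block gave 4 (4649) for H-KO and 1 (1937) for BH-KO against H-KO. It moved no other proteasome count by more than 1.5 times. Of 23 differences named as past the test, 17 kept their direction under every alternative. The 3 that also kept their side of the threshold under every alternative were those of Psmd11 in BH-KO, in BH-KO against H-KO, and between the BH and H effects. The cause of these movements was not tested. Plain totals for the tests, the joint omission of H-WT replicate 3 and BH-KO replicate 1 and the summing of near-identical genes were chosen after the data were seen. Depth limits the low genes most, such as Psma8 and Psme2b.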

Other observations

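Gm609, an annotated gene outside the symbol rule, shares 96.33% of 327 bases with Psma3. It was at 0.266, 0.37 and 0.56 CPM in H-WT and at 21.7, 22.7 and 18.8 in H-KO, and rose there by 5.68 on the log2 scale (edgeR adjusted p = 0.00123). In BH-WT it was at 0.14, 0.858 and 0.639 CPM and in BH-KO at 0.297, 25.1 and 30.2, a rise of 5.05 (edgeR adjusted p = 0.00333) that BH-KO replicate 1 did not share. In BH-HF-WT it was at 0.128, 0 and 0.143 CPM and in BH-HF-KO at 0, 0 and 0.34. Whether reads of Psma3 and Gm609 can be told apart in the counting was not tested. Gm609 was named after its values were seen.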
